A study of Mus musculus with 6 samples.

Results

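The rows described here are intergenic FANTOM3 cDNA clones that lie just past the 3′ end of a gene. A clone row was taken when it overlapped no gene row on either strand, when its nearest edge lay within 10 kb past the 3′ end of a gene row on the same strand, and when its counts summed to 30 or more over all 6 libraries. This left 1477 clones, out of 33353 clone rows and 56826 rows in all. Of the 7746 clone rows that overlapped no gene row, 1819 lay within 10 kb past a gene, and 342 of those had fewer than 30 counts. The rule used no difference between groups. The 15 members nearest its count limit had 30 to 32 counts, and 19 rows just outside had 27 to 29. The farthest member lay 9942 bases past its gene, and the nearest clone outside lay at 10011.

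The libraries came from the brains of adult male C57BL/6 mice aged 8 to 9 weeks, in 2 groups of 3. The first had a sham operation, in which the vessel was exposed but no filament was passed. In the other a filament closed the middle cerebral artery for 1 h and was withdrawn for 6 h of reperfusion, a model of ischemic stroke. Both groups were anaesthetised with chloral hydrate. The sources used here do not give the hemisphere or region, and nothing in the labels ties a library to its own animal, so that p-values describe the spread between these libraries, which may be technical. In whole tissue, fewer cells of a type and less RNA per cell cannot be told apart.

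A messenger RNA ends where the cleavage and polyadenylation machinery cuts the nascent transcript, and RNA polymerase II goes on for some distance before it is released. Many genes have several such sites, and neurons are known for using distal ones, which gives long 3′ untranslated regions that older gene models often lack. Cells under heat shock, osmotic stress or infection are known to transcribe past gene ends, which is called readthrough. A clone row past a gene can therefore hold a distal 3′ end, readthrough RNA or a separate transcript, and the comparison of interest is between the clone's change and that of the gene upstream.

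The 1477 clones lay past 1126 genes, of which 867 had 1 clone and 259 had 2 or more. RefSeq gave 1048 of these genes as protein-coding, 44 as lncRNA and 12 as miRNA. The median clone started 2077 bases past its gene (range 2 to 9942), was 1801 bases long (range 107 to 7614), and 1342 clones were a single unspliced block. Levels are given as RPKM, the count per kilobase of row and per 1e6 counts of the library. The median member stood at 23.5% of the RPKM of its gene. In the RefSeq annotation of GRCm38.p6, 596 clones fell within the span of the very gene upstream, introns included, 511 of them wholly. A further 135 overlapped another RefSeq gene on the same strand or with no strand in the table, 45 only a gene on the opposite strand, and 698 no gene. The last 3 lay on an unplaced contig. Clones of one gene share reads: 435 members overlapped another member on the same strand, and 20 had counts identical to those of another. The sources used here do not give the strand setting of the counting, and 402 members had a gene row on the opposite strand within 10 kb.

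A small set had a start of its own. For 32 members, the 5′ edge lay within 300 bases of the RefSeq start of another gene on the same strand, at 27 distinct starts. The sequences are RefSeq's (GRCm38.p6) and run 5′ to 3′ from 250 bases before the start to 25 bases from it on. They are shown for 2 members whose edge lay within 5 bases of such a start, as examples of a clone that begins where another gene does, with the bases inside the clone in capitals. The first is the start of 2210406O10Rik, 8817 bases past Tada2b, at chr5:36464830-36465104 on the minus strand. The second is that of Rab13, which encodes a small GTPase of cell junctions, 1693 bases past Nup210l, at chr3:90213465-90213739 on the plus strand.
2210406O10Rik: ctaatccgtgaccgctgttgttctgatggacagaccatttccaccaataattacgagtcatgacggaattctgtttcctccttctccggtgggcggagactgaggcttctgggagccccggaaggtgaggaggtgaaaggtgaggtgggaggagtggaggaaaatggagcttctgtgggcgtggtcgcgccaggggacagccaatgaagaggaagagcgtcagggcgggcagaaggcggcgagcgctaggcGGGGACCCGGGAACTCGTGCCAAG
Rab13: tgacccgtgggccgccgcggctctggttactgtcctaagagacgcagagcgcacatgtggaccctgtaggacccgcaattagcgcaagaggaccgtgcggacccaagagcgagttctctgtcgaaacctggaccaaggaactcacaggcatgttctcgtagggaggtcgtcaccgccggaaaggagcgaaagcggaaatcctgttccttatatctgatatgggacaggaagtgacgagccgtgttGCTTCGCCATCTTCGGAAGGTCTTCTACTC
The clones' edges lay 1 and -5 bases from these starts, the minus sign meaning before the start. None of the 27 windows of 300 bases held the letters TATAAA on either strand, against 13.6% of the 32851 promoters of the RefSeq table. The windows held a median of 17 CG pairs, against 7 in all promoters.

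Per library the counts came to 45.4 to 49.7, in units of 1e6, with 48.9 ± 0.778 for sham and 46.7 ± 1.65 for ischemia/reperfusion (SD, n = 3 each). The members took 0.975 to 1.03% of all counts of a sham library and 0.852 to 0.985% of an ischemia/reperfusion library. Summed CPM (counts per 1e6 of the library) of 7 neuron markers ranged over 3364 to 3428 among sham libraries and over 3137 to 3623 among the others. The 5 oligodendrocyte markers summed to 3931 to 4876 and 3362 to 8542 CPM, and the 4 choroid plexus markers to 534 to 745 and 16.7 to 1178 CPM, so that the ischemia/reperfusion libraries spread more widely in both lists. The 6 astrocyte markers summed to 3420 to 3607 and 3193 to 3529 CPM, the 5 microglia markers to 109 to 125 and 125 to 155 CPM, the 4 endothelial markers to 107 to 156 and 128 to 142 CPM, and 5 matched blood and neutrophil markers to 43.7 to 68.8 and 64.8 to 104 CPM. No marker of these lists was at 0 in every library. The part of cell composition in the results below was not tested.

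As a group the clones downstream of genes stood lower after ischemia and reperfusion, while the genes upstream of them had a median near 0. Of 1364 clones with enough counts to test, 919 (67.4%) had a log2 fold change below 0, against 46.9% of all 40170 rows tested, and the median was -0.15 against 0.02. Of the 16642 gene rows tested 55.8% were below 0, with a median of -0.04, and of the 23528 clone rows 40.6%, with a median of 0.09. The 1008 tested upstream genes had a median of -0.01. At an unadjusted p under 0.05 (edgeR quasi-likelihood test), 205 clones (15.0%) were lower, where 6.9% of all rows were, and 34 (2.49%) were higher, where 8.73% of all rows were. The upstream genes had 71 lower and 77 higher, and the 16642 gene rows 1449 lower and 1064 higher. No single clone passed an adjusted p of 0.05 in edgeR, where 0.00249% of all rows did, and the smallest adjusted p among the members was 0.123. DESeq2 gave 30 clones lower and 1 higher out of 1115 with an adjusted p, where 0.666% and 1.03% of all rows were called. Limma-voom called 0 of 1364 clones, and 0% of all rows, with 211 clones lower and 34 higher at an unadjusted p under 0.05.

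The groups did not overlap, with all ischemia/reperfusion libraries under all sham libraries, for 191 clones (14.0%, against 6.99% of all rows), and lay the other way round for 68 (4.99%, against 14%). In the authors' deposited table, all 1477 clones were listed, and 230 were lower and 66 higher at a q under 0.05, where 9.77% and 14.7% of all listed rows were. Single libraries weighed on these counts. Without ischemia/reperfusion replicate 1, edgeR called 52 clones at an adjusted p under 0.05 and had 308 lower at an unadjusted p under 0.05. Without sham replicate 1 the latter count was 116. For fits without a library, here and below, the shares over all rows are not given. Whether such shifts are particular to the clones cannot be told from these counts. The median log2 fold change lay between -0.23 and -0.10 whichever library was left out.

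Taken over all depths, clones within the RefSeq span of their gene held the larger share of lower ones. Of 580 tested clones there, 132 (22.8%) were lower and 11 (1.90%) higher at an unadjusted p under 0.05, with a median log2 fold change of -0.20. Of 784 not within that span, 73 (9.31%) were lower and 23 (2.93%) higher, with a median of -0.09. Clones in no RefSeq gene had 64 lower and 11 higher of 623, with a median of -0.11. Those in another RefSeq gene had 3 lower (2.48%) and 11 higher (9.09%) of 121, with a median of 0.07. Over all rows tested 6.9% were lower and 8.73% higher, so that the share of higher ones in this last class was near that of all rows. The classes also differed in level, since the median clone within the span stood at 51.4% of its gene and had 1390 counts, against 8.47% and 247 counts for the others. DESeq2's 30 lower clones included 21 within the span. Without sham replicate 1 the 132 became 76, and without ischemia/reperfusion replicate 1 they became 199.

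**Figure D1:**
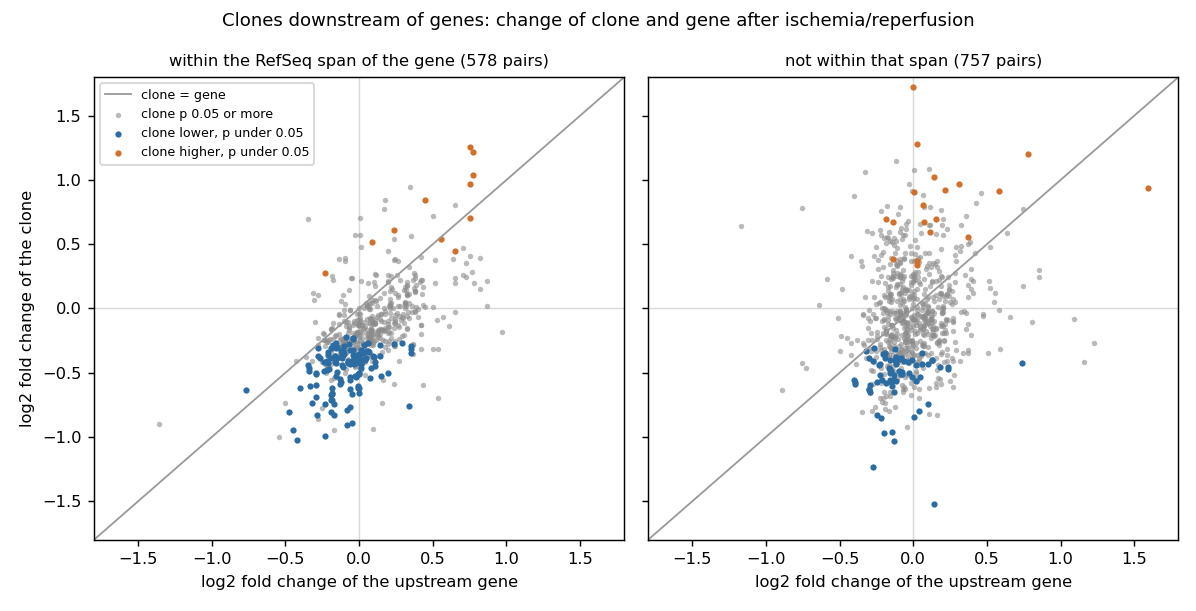
Log2 fold change of each clone (vertical axis, ischemia/reperfusion against sham) against that of its upstream gene (horizontal axis), for 578 pairs within the RefSeq span of the gene (left) and 757 not within it (right). Points are blue where the clone was lower and orange where it was higher (edgeR, unadjusted p under 0.05), and the grey diagonal marks equal change. On the left most points lie along but under the diagonal, and on the right they spread around it.

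Set against its own gene, the median clone stood lower. The log2 ratio of clone to gene was tested for every clone row and gene row pair of the table (limma). Over 1335 member pairs its median change was -0.19, against 0.07 over all 22489 pairs. At an unadjusted p under 0.05 the ratio was lower for 209 members, where 4.85% of all pairs were lower, and higher for 34, where 11.7% were higher. No pair passed an adjusted p of 0.05 among the members or over all pairs (0%), and the smallest adjusted p was 0.113. The 209 became 348 without ischemia/reperfusion replicate 1, and 102 to 135 without sham replicate 1 or 3 or ischemia/reperfusion replicate 2 or 3. Ratios of the groups did not overlap for 263 members (19.7%) in the lower direction, against 7.87% of all pairs, and for 54 (4.04%) in the higher, against 14.9%.

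Library by library, the median clone within the RefSeq span stood at 56.9%, 55.9% and 56.7% of the RPKM of its gene in sham replicates 1 to 3. It stood at 53.7%, 40.6% and 44.6% in ischemia/reperfusion replicates 1 to 3. Every ischemia/reperfusion library was below every sham library, but replicate 1 only just so. For clones in no RefSeq gene the sham medians were 9.42%, 9.36% and 9.39%, and the ischemia/reperfusion medians 9.05%, 7.55% and 7.94%, again without overlap. Over all members, ischemia/reperfusion replicate 1 at 25.5% lay within the sham range of 25.4 to 27.1%, and replicates 2 and 3 at 21.1% and 23.0% lay under it. Other clones of the table went the opposite way or showed no separation. In 17319 pairs where the clone overlapped the gene, introns included, the median clone stood at 16.6 to 16.7% of the gene in sham and at 18.1 to 18.8% in ischemia/reperfusion. In 1644 pairs whose clone lay over 10 kb past the gene it stood at 8.12 to 9.73% and 9.26 to 10.4%, and the groups overlapped. No test compared the kinds of clone with each other.

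**Figure D2:**
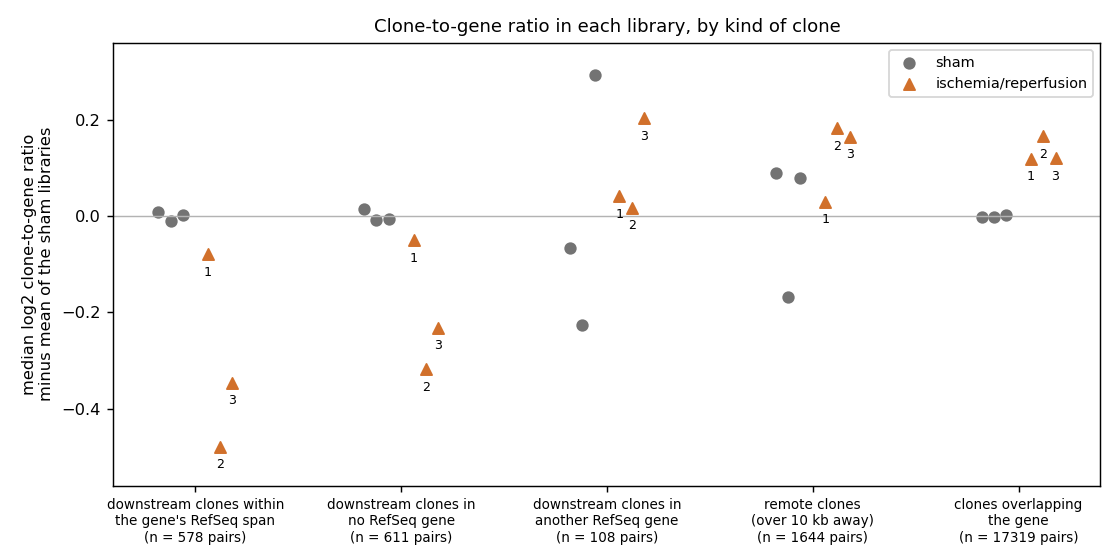
Median log2 ratio of clone to gene, per base of length, in each library (points), with the mean of the 3 sham libraries set to 0, for 5 kinds of clone. Circles are sham libraries and numbered triangles are ischemia/reperfusion replicates 1 to 3. The triangles lie under the circles for downstream clones within the gene's RefSeq span and for those in no RefSeq gene, and above them for clones that overlap a gene.

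Within the RefSeq span the ratio stood lower the farther the clone lay from the 3′ end of the counted gene. The median change was -0.19 for 215 pairs up to 1 kb away, -0.29 for 131 pairs at 1 to 2 kb, -0.31 for 164 pairs at 2 to 5 kb and -0.35 for 68 pairs at 5 to 10 kb. Clones not within the span showed the reverse order, with medians of -0.15, -0.13, -0.11 and -0.01 over 184, 134, 250 and 189 pairs. Along single genes, only a part of those with clones at different distances were compared, 97 in all. The farthest clone had the lower fold change in 49 of the 97, with a median difference of 0.00 on the log2 scale. Among 38 genes with both clones within the span it was lower in 21, with medians of -0.10 for the nearest and -0.17 for the farthest clone and a median difference of -0.07. Among the 59 other genes it was lower in 28, with a median difference of 0.04. These differences were not tested. Both clones stood below the gene in 32 of those 38.

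Level moved with the result as well. Clones at up to 5% of the RPKM of their gene had a median ratio change of 0.10 over 300 pairs. The medians were -0.12 at 5 to 10%, -0.20 at 10 to 25%, -0.24 at 25 to 50%, -0.26 at 50 to 100% and -0.21 over 100% of the gene. Of 233 clones with over 3000 counts, 93 were lower and 2 higher at an unadjusted p under 0.05 (edgeR), where 14.4% and 5.47% of the 13600 rows of that depth were, with a median log2 fold change of -0.23. That median was -0.22 at over 1000 and up to 3000 counts, -0.11 at over 300 and up to 1000, -0.05 at over 100 and up to 300 and 0.07 at 30 to 100. Over all tested rows the medians ran in the same order, at -0.07, 0.00, 0.11, 0.25 and 0.28 from the deepest rows to the shallowest, and in each range the members' median was the lower. Among the clones with over 3000 counts that were not within the RefSeq span, 21 of 59 were lower and 0 higher, with a median of -0.21. Within the span 72 of 174 clones of that depth were lower and 2 higher, with a median of -0.23. Whether level or position sets these values was not tested.

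**Figure D3:**
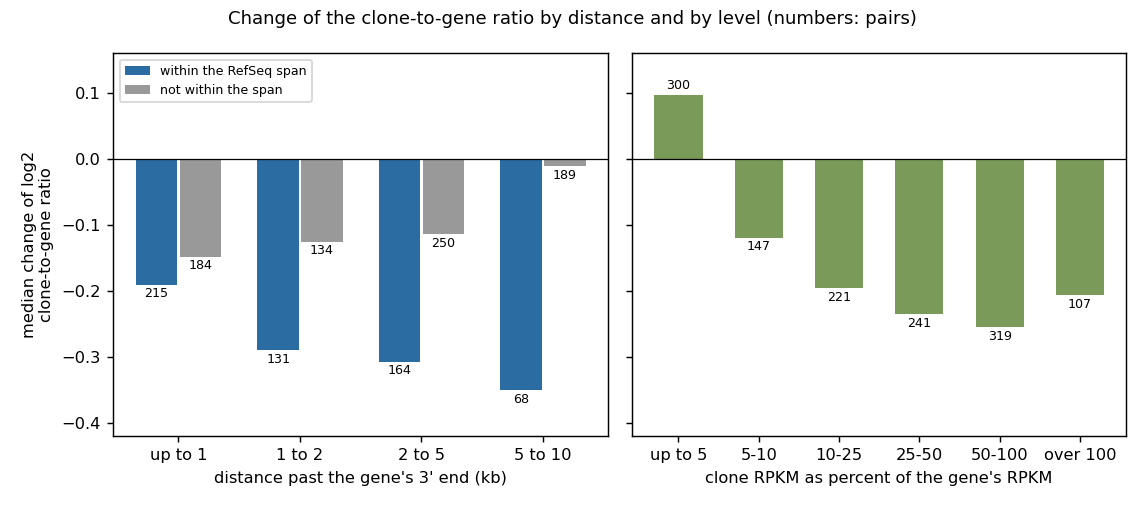
Median change of the log2 clone-to-gene ratio (bars, from 0) by distance past the 3′ end of the gene in kb (left) and by the clone's RPKM as percent of that of its gene (right), with the number of pairs at each bar. On the left, bars within the RefSeq span (blue) run from -0.19 to -0.35 and the others (grey) from -0.15 to -0.01. On the right, only clones at up to 5% of their gene have a bar above 0, at 0.10.

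The change of a clone followed that of its gene in part. Across 1335 pairs, which share libraries and scaling, Pearson's r was 0.31 and Spearman's rho 0.32. Over the 1097 pairs that also had a tested next gene downstream on the same strand, r was 0.05 with that gene and 0.31 with the upstream one. The next gene lay a median of 49994 bases away, much farther than the upstream gene, so the values are not at matched distances. Over the clones more than 10 kb past a gene, r with that upstream gene was 0.04. Those clones had a median of 139 counts, against 471 for the members, so depth was not matched there. Within the RefSeq span r was 0.59 over 578 pairs, from 0.63 up to 1 kb to 0.52 at 5 to 10 kb. It was 0.18 over the 757 other pairs, and 0.54 over all pairs with a mean of at least 1 CPM. The clones of genes that stood higher lagged behind them. Past 77 genes that were higher at an unadjusted p under 0.05 (edgeR) lay 122 clones, whose genes had a median log2 fold change of 0.38 and which themselves had 0.10. The ratio was lower for 33 and higher for 0 of them at an unadjusted p under 0.05 (limma). Past 71 lower genes lay 76 clones. The 20 within the RefSeq span had a median log2 fold change of -0.49 where their genes had -0.31, with ratios lower for 4 and higher for 0. The 56 others had -0.21 where their genes had -0.31, with ratios lower for 1 and higher for 6. Genes chosen for a low p tend to stand farther out than clones that were not so chosen.

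The lower clones with the smallest p lay past Zkscan16, Nlgn1, Lphn3, Grin2a and Il1rapl1. Neuroligin 1 (Nlgn1) is a postsynaptic adhesion protein of excitatory synapses. Its clone fantom3_1500034A09, at chr3:25426215-25429203 on the minus strand (mm10) and 2638 bases past the gene row, was at 2.44, 2.95 and 2.15 RPKM in sham and 1.10, 1.45 and 1.40 RPKM in ischemia/reperfusion. The groups did not overlap, and the log2 fold change was -0.99 ± 0.18 (SE, edgeR adjusted p 0.123). The gene itself, at 20.0, 23.5 and 19.4 RPKM in sham and 16.5, 21.8 and 17.4 RPKM after, overlapped between groups and had -0.23 ± 0.13. The log2 ratio differed by -0.75 ± 0.10 (limma adjusted p 0.153). A second Nlgn1 clone, fantom3_6430514A06, 90 bases past the gene row, had a log2 fold change of -0.75 ± 0.16. Both lie within the RefSeq span of the gene.

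Grin2a encodes the GluN2A subunit of NMDA receptors. Its clone fantom3_B230036G05 (chr16:9567912-9571020, minus strand), 6690 bases past the gene row and within the RefSeq span, was nearly as abundant as the gene in sham. It was at 40.3, 33.4 and 32.7 RPKM in sham and 22.5, 26.9 and 22.2 RPKM in ischemia/reperfusion. The groups did not overlap, and the log2 fold change was -0.63 ± 0.12 (edgeR adjusted p 0.129). The gene overlapped, at 43.5, 36.5 and 40.3 RPKM and then 30.03, 48.2 and 41.4 RPKM, with -0.06 ± 0.16. The clone stood at 81.3 to 92.6% of the gene in the sham libraries and at 53.7 to 74.8% after ischemia and reperfusion.

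The 5 lower clones with the smallest p were completed by 3 more within the RefSeq span. Lphn3, now Adgrl3, encodes a latrophilin adhesion receptor of synapses. Its clone fantom3_6430408K12 (chr5:81799026-81802134, plus strand) was at 4.18, 3.68 and 3.64 RPKM in sham and 2.47, 2.5 and 2.05 RPKM after, a log2 fold change of -0.77 ± 0.14 against -0.06 ± 0.10 for the gene. Il1rapl1 encodes a synaptic member of the interleukin-1 receptor family. Its clone fantom3_6330532G10 (chrX:86740937-86742399, minus strand) was at 3.37, 3.29 and 2.88 RPKM in sham and 2.05, 1.62 and 1.61 RPKM after, with -0.91 ± 0.18 against -0.08 ± 0.12 for the gene. Zkscan16 encodes a zinc finger protein. Its clone fantom3_6332404K23 (chr4:58960357-58962620, plus strand) was at 13.2, 11.3 and 11.7 RPKM in sham and 7.46, 7.75 and 6.29 RPKM after, with -0.80 ± 0.12, and here the gene stood lower too, at -0.48 ± 0.16. In none of these clones did the groups overlap. Their edgeR adjusted p was 0.123, 0.139 and 0.123, and DESeq2 called all 5 clones, with adjusted p from 2.74e-05 (Zkscan16) to 0.00318 (Il1rapl1).

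**Figure D4:**
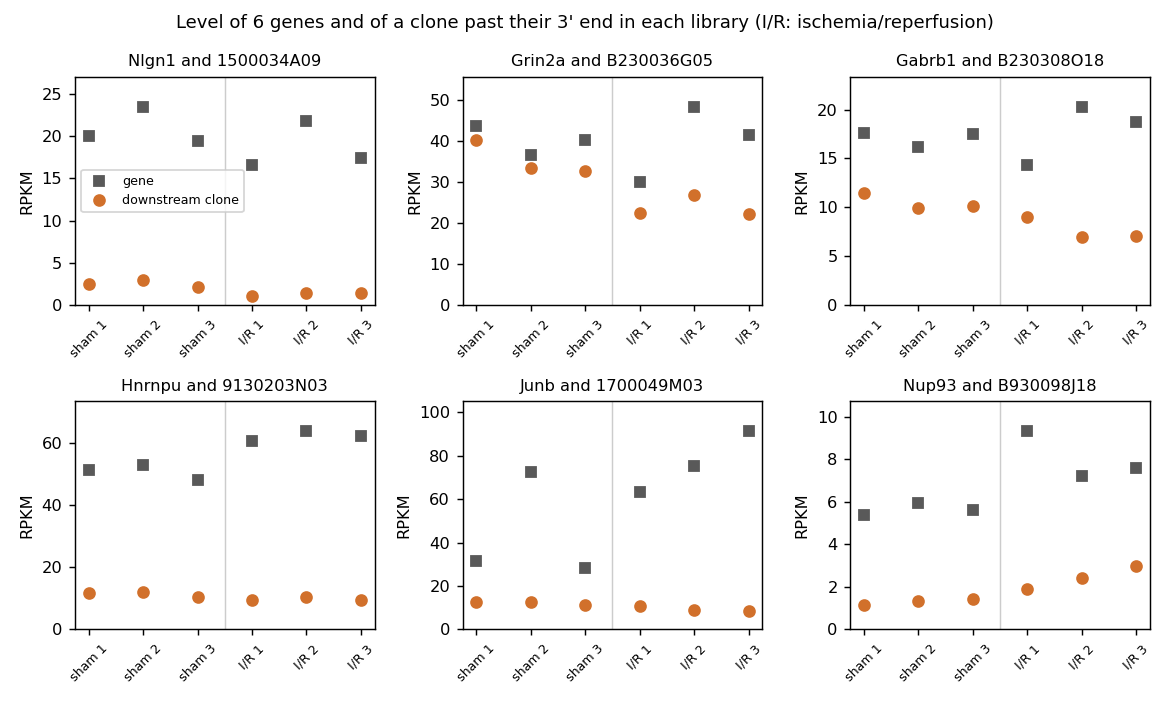
RPKM in each library (horizontal axis, 3 sham then 3 ischemia/reperfusion libraries) of 6 genes (squares) and of a clone past the 3′ end of each (circles), each panel with its own axis from 0. The clones of Nlgn1, Grin2a, Gabrb1, Hnrnpu and Junb are lower in every ischemia/reperfusion library than in any sham library, and that of Nup93 is higher.

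The 5 pairs with the smallest p for the ratio were Hnrnpu, Homer1, Nlgn1, Paqr9 and Pura. Hnrnpu encodes a nuclear RNA-binding protein. Its clone fantom3_9130203N03 (chr1:178324343-178326708, minus strand, within the RefSeq span) stood at 23.1%, 22.5% and 21.5% of the gene in sham and at 15.7%, 16.1% and 15.1% in ischemia/reperfusion. The ratios did not overlap, and the log2 ratio differed by -0.51 ± 0.04 (limma adjusted p 0.113). Clone and gene stood on opposite sides of 0, at -0.28 ± 0.11 and 0.24 ± 0.09. The 3 Hnrnpu clones differed, with ratio differences from -0.51 to 0.01. The farthest of them, fantom3_C820011M03 at 9198 bases, had a log2 fold change of 0.25. Homer1 encodes a scaffold of the postsynaptic density. Its clone fantom3_B930041O05 (chr13:93410783-93412957, plus strand, in no RefSeq gene) stood at 36.3%, 35.1% and 37.2% of the gene in sham and at 26.0%, 27.2% and 25.9% after, a log2 ratio difference of -0.46 ± 0.04 (limma adjusted p 0.113). All 3 Homer1 clones, from 647 to 5821 bases past the gene row, had ratio differences of -0.46 to -0.41.

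Paqr9 encodes a membrane protein of the progestin and adipoQ receptor family. Its clone fantom3_C630024D06 stood at 58.1 to 61.5% of the gene in sham and 44.2 to 46.5% after, with a ratio difference of -0.40 ± 0.06 (limma adjusted p 0.157). Pura encodes a DNA- and RNA-binding protein needed for brain development. Its clone fantom3_A330049K10 stood at 75.6 to 77.7% of the gene in sham and 42 to 54.7% after, with -0.70 ± 0.10 (limma adjusted p 0.157). The nearest of the 3 Pura clones, 1692 bases past the gene row, had a ratio difference of -0.34 ± 0.06 and the farthest, at 6700 bases, -0.68 ± 0.10.

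Some genes had several clones. Gabrb1, which encodes the β1 subunit of GABA-A receptors, had 5, all within the RefSeq span. The 2 clones near the gene row, fantom3_B230208N19 and fantom3_A830061D24 at 22 and 620 bases, stood at 78.5 to 112% of the gene in the sham libraries and 59.3 to 90.9% after, with log2 fold changes of -0.36 ± 0.10 and -0.42 ± 0.12. The 3 clones beyond 9 kb overlap each other and share reads. Of these, fantom3_B230308O18 (chr5:72146380-72149035, plus strand) was at 11.5, 9.94 and 10.1 RPKM in sham and 8.97, 6.95 and 7.08 RPKM after, without overlap, with -0.51 ± 0.12 (edgeR adjusted p 0.153). fantom3_B230313A11 had -0.50 ± 0.14 and fantom3_C030009O12 -0.38 ± 0.17. The Gabrb1 gene row was at 17.6, 16.2 and 17.5 RPKM in sham and 14.3, 20.3 and 18.7 RPKM after, with a log2 fold change of 0.00 ± 0.13.

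Mib1, a ubiquitin ligase of Notch signalling, also had 5 clones, at 68.3 to 108% of the gene and with log2 fold changes of -0.20 to -0.18 against 0.08 for the gene. Csnk1a1, the casein kinase 1 alpha gene, had 5 at 2.87 to 54.8% of the gene, with -0.13 to -0.08 against 0.00. The lncRNA gene 4930539J05Rik had 7, at only 2.66 to 4.56% of the gene and with log2 fold changes of -0.30 to 0.09 against 0.10. None of these clones had an unadjusted p under 0.05 (edgeR). The ratio to the gene differed by -0.30 to -0.27 for the Mib1 clones, with an unadjusted p of 0.011 to 0.026 (limma). That p was 0.168 to 0.601 for the Csnk1a1 clones and 0.119 to 0.756 for those of 4930539J05Rik. Of 243 genes with 2 or more clones that were all tested, all clones stood below 0 for 152, all above 0 for 45, and they were mixed for 46.

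The most abundant members lay within the RefSeq span of their genes with 1 exception. Clone fantom3_1810034E21, 134 bases past Clstn1, a calsyntenin of synaptic membranes, was at 351, 310 and 333 RPKM in sham and 281, 319 and 286 RPKM in ischemia/reperfusion. The groups overlapped, and the log2 fold change was -0.22 ± 0.10. Next came 2 largely overlapping clones of Rab11fip4, an effector of endosomal traffic, fantom3_D330011G01 and fantom3_A730072L08, at means of 66.2 and 65.3 RPKM in sham and 62.9 and 62.1 RPKM after, each with -0.13 ± 0.10. The exception was fantom3_D930027H23, in no RefSeq gene and 2077 bases past the lncRNA 1700020I14Rik, at 60.6 ± 3.44 RPKM in sham and 58.4 ± 5.79 RPKM after (SD, n = 3 each).

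Among the rest of the 8 most abundant, clone fantom3_4732477C12 past Uhmk1, a serine/threonine kinase, was at 57.5, 51.7 and 56.8 RPKM in sham and 48.5, 47.3 and 46.8 RPKM after, the only one whose groups did not overlap. Its log2 fold change was -0.27 ± 0.09 (edgeR adjusted p 0.207). Clone fantom3_2310051E17 past Klf9, a transcription factor that answers to glucocorticoids, had -0.34 ± 0.16. Clone fantom3_6330535A03 past Scrn1, a secernin, had -0.13 ± 0.11, and fantom3_4833429C02 past the imprinted gene Peg3 had -0.09 ± 0.10. All 8 log2 fold changes lay between -0.34 and -0.09, and all 8 ratios to the gene were lower, by differences of -0.23 to -0.08.

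Genes induced by stress had few members, and the 4 clones that could be tested stood below their genes. Of 39 genes in the heat shock, immediate early and cytokine lists, 5 had a clone in reach, and none of them was a heat shock gene. Jun, a subunit of the AP-1 transcription factor, was at 13.4, 16.9 and 18.0 RPKM in sham and 40.5, 27 and 50.6 RPKM in ischemia/reperfusion, without overlap, with 1.23 ± 0.22. Its clone fantom3_B730047E09 (chr4:95047647-95048732, minus strand), 304 bases past it and in no RefSeq gene, was at 0.148, 0.249 and 0.226 RPKM in sham and 0.0948, 0.140 and 0.304 RPKM after. These overlapped, and the clone's share of the gene was 1.10 to 1.47% in sham and 0.234 to 0.601% after, a log2 ratio difference of -1.57 ± 0.37 (limma adjusted p 0.206). The clone's own log2 fold change was -0.27 ± 0.55, and 0.031 without ischemia/reperfusion replicate 1. At these levels each library held few counts of the Jun clone.

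Junb, another AP-1 subunit, was at 31.3, 72.4 and 28.3 RPKM in sham and 63.3, 75.1 and 91.2 RPKM after, which overlapped through sham replicate 2 (0.74 ± 0.43). Its spliced clone fantom3_1700049M03 (chr8:84974484-84976537, minus strand), 372 bases past it, went the other way, from 12.6, 12.5 and 11.4 RPKM to 10.8, 8.86 and 8.63 RPKM, without overlap (-0.42 ± 0.16, edgeR adjusted p 0.246). RefSeq has only a gene on the opposite strand there, whose reads cannot be told apart. For Egr3 and Nr4a3, immediate early transcription factors, the clones lay within the RefSeq span. The Egr3 clone fantom3_4930445J05 had 0.22 ± 0.15 against 0.36 ± 0.12 for the gene, and the Nr4a3 clone fantom3_G370106B04 had 0.39 ± 0.31 against 0.64 ± 0.28. Csf1 encodes a growth factor of microglia and macrophages. Its clone fantom3_4831427A09 was at 0.00836 to 0.0505 RPKM, too few counts to test, while the gene had 0.51 ± 0.11.

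The upstream genes with the smallest p had clones that went both ways against them. Dot1l, a histone H3 lysine 79 methyltransferase, had 0.82 ± 0.15, and its clone fantom3_C430040N23, 48 bases past it and within the RefSeq span, 0.15 ± 0.27. The clone stood at 68.7 to 87.8% of the gene in the sham libraries and 35.9 to 53.7% after. Without ischemia/reperfusion replicate 3 the clone had -0.14. Xylt1, which starts glycosaminoglycan chains on proteoglycans, had 0.55 ± 0.12, and its clone fantom3_3830612M24 0.12 ± 0.16. Rem2, a small GTPase that inhibits calcium channels, had 1.06 ± 0.21. Its clone fantom3_A430069B17, 441 bases past it and in no RefSeq gene, had too few counts to test, at 0.0184, 0.00950 and 0.00935 RPKM in sham and 0.141, 0.0793 and 0.131 RPKM in ischemia/reperfusion. This was the only untested one of these clones whose groups did not overlap, and it stood at 0.269 to 0.679% of the gene in sham and 1.62 to 1.73% after. The clone of Zfpm1, a cofactor of GATA factors, was not tested either (fantom3_A730054H03, 0.0610 to 1.20 RPKM, overlapping groups), while the gene had 0.74 ± 0.16. Of these 8 genes 2 stood lower. Gjb6, the astrocyte connexin 30 gene, had -0.64 ± 0.13 and its clone fantom3_9330162K03 0.03 ± 0.34, which ran from -0.056 to 0.13 with 1 library left out. Here the clone's share of the gene was larger after, at 0.593 to 0.729% in sham and 0.950 to 1.29% after without overlap, a log2 ratio difference of 0.67 ± 0.17 (limma adjusted p 0.216). The lncRNA E030003E18Rik had -0.89 ± 0.15 and its clone fantom3_E030028G18 -0.64 ± 0.40, with a ratio difference of 0.17 ± 0.30 and shares of the gene that overlapped.

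Few clones were higher. Shank3 encodes a scaffold of the postsynaptic density. Its clone fantom3_A230095H09 (chr15:89562998-89566412, plus strand, in no RefSeq gene) was at 0.140, 0.169 and 0.173 RPKM in sham and 0.423, 0.308 and 0.426 RPKM in ischemia/reperfusion, without overlap. Its log2 fold change was 1.20 ± 0.28 (edgeR adjusted p 0.150), and the gene had 0.78 ± 0.21, so that the ratio differed by 0.43 ± 0.32. Nup93 encodes a scaffold of the nuclear pore. Its clone fantom3_B930098J18 (chr8:94322158-94323404, plus strand, within the RefSeq span) was at 1.16, 1.32 and 1.43 RPKM in sham and 1.90, 2.43 and 2.97 RPKM after, with 0.84 ± 0.22 (edgeR adjusted p 0.165), and the gene had 0.45 ± 0.12. The clone fantom3_A230020L22 nearby (chr8:94326012-94327654, plus strand) has the microRNA row Mir138-2 upstream of it and overlaps the RefSeq span of Nup93 as well. It was at 1.22, 0.847 and 1.54 RPKM in sham and 2.39, 2.20 and 2.33 RPKM after, with 0.88 ± 0.22, and was the 1 higher clone that DESeq2 called (adjusted p 0.0307).

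Clone fantom3_2300006M17 (chr13:63301880-63302284, plus strand) lay 605 bases past Mir24-1 and overlapped the RefSeq gene Aopep. It was at 11.5, 9.03 and 11.7 RPKM in sham and 24.2, 16.3 and 14.0 RPKM after, with 0.70 ± 0.21. For 19 clones the row upstream was a small RNA, whose own counts do not measure a host transcript. At an unadjusted p under 0.05 (edgeR), 4 of the 17 tested were higher, where 8.73% of all rows were, and 0 lower, where 6.9% were, with a median of 0.38. Clone fantom3_4930500D04 (chr11:80413749-80415798, plus strand), 7876 bases past Zfp207, a mitotic zinc finger protein, was at 0.383, 0.527 and 0.329 RPKM in sham and 0.874, 0.867 and 0.677 RPKM after, with 0.91 ± 0.27, while its gene had 0.00 ± 0.09. The ratio stood higher with the smallest p for the clones of Ipp (0.51 ± 0.10), Rufy3 (0.44 ± 0.09), Pias2 (0.66 ± 0.15), Srr (0.59 ± 0.14) and Kcnk9 (0.43 ± 0.11), each with ratios that did not overlap. These clones lay 4605 to 9456 bases past their genes. A nearer Kcnk9 clone, fantom3_A330077P12 at 4112 bases, went the other way, with a ratio difference of -0.17. Ipp encodes a kelch-repeat protein, Rufy3 a protein of neuronal polarity, Pias2 a SUMO ligase, Srr the enzyme that makes D-serine and Kcnk9 a potassium channel. Clones with a RefSeq start of their own had 1 higher (3.45%) and 0 lower of 29 tested at an unadjusted p under 0.05 (edgeR), with a median of -0.05. Of all rows 8.73% were higher and 6.9% lower, and 29 clones are few for such shares. The higher one, fantom3_A930017K11, past Solh, had a log2 fold change of 0.97 (edgeR adjusted p 0.249).

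Genes that make 3′ ends or end transcription showed small differences. None passed an adjusted p of 0.05 in edgeR. The counts of these lists are at an unadjusted p under 0.05 (edgeR), where 8.73% of all rows were higher and 6.9% lower. Of 20 cleavage and polyadenylation genes 0 were higher and 1 was lower, with a median log2 fold change of -0.02. The lower one was Cpsf6 (-0.20 ± 0.09), a subunit of the cleavage factor that favours distal sites. Its partner Nudt21 had -0.23 ± 0.10, and the Nudt21 clone fantom3_5730530J16, named after its values were seen, -0.43 ± 0.10. That clone was at 22.4, 21.5 and 22.1 RPKM in sham and 18.1, 17.3 and 15.3 RPKM after, without overlap. Of 14 matched termination genes 2 were higher, Ppp1r10 (0.38 ± 0.11), a partner of protein phosphatase 1, and Scaf8 (0.29 ± 0.09), an anti-terminator bound to RNA polymerase II, and 0 lower, with a median of -0.02. Of 13 genes of U1 snRNP and neuronal 3′ end choice 0 were higher or lower, with a median of -0.02. Of 7 matched nuclear RNA decay genes 1 was higher, Zfc3h1 (0.30 ± 0.11), an adaptor of the nuclear exosome, with a median of 0.14. The genes of these lists had 8 tested clones in reach, 5 below and 3 above 0.

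The stress lists stood higher in the same libraries, as counts at an unadjusted p under 0.05 (edgeR) with no gene past the adjusted threshold. At that p 8.73% of all rows were higher and 6.9% lower. Among rows with over 3000 counts 5.47% were higher and 14.4% lower. Of 10 heat shock genes 7 were higher (median 0.92), of 17 immediate early genes 10 (median 0.96), and of 12 cytokine and chemokine genes 9 (median 2.18), and none was lower in any of them. Among the marker lists, neuron markers had 1 lower of 7 (Tubb3, -0.32 ± 0.09), astrocyte markers 2 lower of 6, microglia markers 1 higher of 5 and blood and neutrophil markers 2 higher of 4 tested. Oligodendrocyte, endothelial and choroid plexus markers had none.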

How the data were processed

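Ribosomal RNA was removed from total RNA, and read pairs were sequenced on a HiSeq instrument, per the labels' protocols. The build was mm10, per the submitters' processing notes. No source used here names the aligner, the counting tool or the strandedness. The authors deposited raw whole-number counts for each row, and RPKM, which divides a count by row length in kilobases and by the library total in 1e6. The authors' deposited table holds a log2 fold change with p-values and q-values of a test they do not name there. Row lengths and positions were used as deposited.

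A member was paired with the gene row whose 3′ end was nearest upstream. 2 clone rows whose end lay before their start were left out. Counts of all 56826 rows entered edgeR 4.0.16 (R 4.3.3; TMM factors, filterByExpr, robust quasi-likelihood F test, two-sided, Benjamini-Hochberg over 40170 rows, threshold 0.05), which left 113 members untested. Each clone-to-gene ratio, log2 of both counts plus 0.5, was tested with limma 3.58.1 (trend, robust) over 22489 pairs. Levels in CPM and shares of the gene were computed from the deposited counts and RPKM. RefSeq GRCm38.p6 gave spans, biotypes and starts. On simulated data edgeR found 68% of 2-fold and 100% of 4-fold changes (39500 rows), with 4% of calls false, and the ratio test 38% and 95% (21953 pairs), with 3.62% false. Changes were set only in clones with a mean of at least 1 CPM, and 894 members were tested at that filter. Clone and gene counts were drawn independently of each other. The recovery therefore does not cover the shallower members.

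Named were the 8 members of highest mean RPKM, 5 each way with the smallest p of the row and of the ratio, members past heat shock, immediate early or cytokine genes or past the 8 genes with the smallest p, and the genes with the most members. The other clones of Nlgn1, Homer1, Pura, Hnrnpu and Kcnk9, the Nudt21 clone and fantom3_A930017K11 were named after their values were seen. The members and the 14 gene lists were chosen with earlier results of these data known. Alternatives were RLE factors, no filter, a mean of 1 CPM, the replicate number as a block, each library left out, DESeq2 1.42.0, limma-voom, distances of 1 and 5 kb, members with no gene row on the opposite strand, 1 clone per gene and a pseudocount of 5. Members outside the RefSeq span were added after seeing the data. The start of one further member is not reported here.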

Additional observations from a re-analysis of the deposited data

How the results depend on the processing

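The median log2 fold change of the members and their median ratio change stayed below 0 under every alternative that gave them (neither was computed with DESeq2 or limma-voom, nor the first with the pseudocount of 5), at -0.23 to -0.10 and -0.26 to -0.12 over the 6 fits that left out a library. Within the RefSeq span the median ratio change was -0.33 to -0.17 over those fits. Counts moved more. With edgeR, 4 clones were called without a filter, 0 to 52 when a library was left out (52 without ischemia/reperfusion replicate 1, 2 without its replicate 2), and 31 with DESeq2. At an unadjusted p under 0.05, leaving out a library gave 116 (without sham replicate 1) to 308 lower clones and 76 to 199 within the RefSeq span, and 102 to 348 pairs with a lower ratio (348 without ischemia/reperfusion replicate 1). Within 1 kb of the gene 57 clones were lower and 4 higher, 40 within the span were lower, and 59 ratios were lower and 4 higher. Within 5 kb 21 clones and 18 ratios were higher. With a mean of at least 1 CPM 14 ratios were higher, and with 1 clone per gene 138 were lower. Among members not within the RefSeq span, an alternative chosen after seeing the data, 73 clones and 67 ratios were lower. The correlation of clone and gene across pairs was 0.54 with a mean of at least 1 CPM and 0.18 outside the span. The cause of these differences was not tested, beyond the smaller sets that the distance, span and 1-clone settings leave.

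Among the named members, directions turned only for clones with p over 0.5 in the full fit or for ratios with p over 0.5. Without single libraries, the log2 fold change of fantom3_9330162K03 (past Gjb6) was -0.056 to 0.13, that of fantom3_B730047E09 (past Jun) -0.87 to 0.031 and that of fantom3_C430040N23 (past Dot1l) -0.14 to 0.38, and the ratio change of fantom3_E030028G18 (past E030003E18Rik) -0.047 to 0.43. The replicate number as a block gave 207 lower and 36 higher clones, 205 lower and 36 higher ratios, and a correlation of 0.31. Same-numbered libraries had correlations of deviations of -0.07, 0.03 and 0.11, so the numbers do not pair the libraries. The depth left 113 members with too few counts to test.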
